A study of Schizophyllum commune with 6 samples.

Results

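The 8 gene models described here are the mating pheromone genes of the B locus of the split-gill mushroom Schizophyllum commune that the reference table names and that received reads. They are bap3-3 (identifier 60520), bbp2-1 (83222), bbp2-2 (251504), bbp2-5 (1104024), bbp2-6 (60621), bbp2-8 (17250) and a pair of copies both named bbp2 (251507 and 17248). They were chosen by identifier, out of 14652 gene models in the deposited tables, and all 8 passed the filter on low reads, which kept 12484 models. Expression was measured by RNA sequencing in 6 libraries of mycelium, 2 for each of 3 strains. The dhc2 knockout lacks dynein heavy chain gene 2, which encodes a subunit of the motor that moves cargo along microtubules, and its labelled mating type is A3,5 with B2,2. E6 is a wild type of labelled mating type A4,6 with B2,1. The other wild type, 12-43, is labelled A3,5 with B2,2, as the knockout is. All 3 strains were grown on solid CYM medium at 28 °C, and the mycelium was then kept on cellophane for 3 days. The labels call every strain a monokaryon, a mycelium with 1 type of nucleus, while the growth protocol speaks of a mating interaction, and which of these applies cannot be told from the labels. They also do not say whether the replicates were separate cultures or whether the knockout was 1 clone, and the p-values given below therefore reflect differences among libraries that may be purely technical.

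In this species the B locus consists of linked alpha and beta subloci, each of which encodes several pheromones and a receptor. The pheromones are made as short precursors that end in a CaaX box, which directs the attachment of a lipid, and the mature lipopeptides are secreted. A receptor of the family that couples to G proteins senses pheromones of other specificities, and this recognition sets off nuclear migration in the mated mycelium. Gene symbols give the sublocus and the specificity. The bap genes encode alpha pheromones and the bbp genes beta pheromones, bar and bbr genes encode the matching receptors, and brl genes are receptor-like genes. The 7 bbp2 genes are thus named for beta specificity 2. With the pair of B numbers in the labels read as alpha and then beta, the dhc2 knockout and 12-43 carry that specificity and E6 does not, and bap3-3 is named for alpha specificity 3, which no label holds.

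The expression values are RPKM, reads scaled by the length of the model and by the depth of the library. The whole reads behind them were recovered from the steps between low values, against denominators of 8769918 to 14372979 reads a library. A value of 0 allows up to 3 reads. No table used here ties dhc2 to an identifier, so the knockout label was not checked on its own gene. The quality reports split the libraries, with the 5-base sequence GAAGA listed as enriched in both knockout libraries and 12-43 replicate 1 and not listed in the others. Markers of mated mycelium differed between strains as well. The summed RPKM of the hydrophobin genes SC1, SC4 and SC6, known from mated mycelium and its fruiting bodies, was 24.2 and 22.7 in the dhc2 knockout, 15.1 and 18.2 in E6 and 284 and 571 in 12-43, and none of the 3 genes was at 0 in any library. In 12-43 most of that sum was SC4. The gene SC6 passed the test in neither comparison with 12-43 (fitted log2 differences of 0.41 in the knockout and 0.55 in E6). The hydrophobin SC3 of aerial hyphae had 4842 and 4704 RPKM in the knockout, 21811 and 23009 in E6 and 10907 and 13868 in 12-43, and against 12-43 it was called lower in the knockout (-1.36, limma adjusted p = 0.000839) and higher in E6 (0.96, limma adjusted p = 0.00394). The gene ura1, of pyrimidine synthesis and used as a selection marker in this fungus, had 213 and 214 RPKM in the knockout, 14.7 and 14.2 in E6 and 7.74 and 10.8 in 12-43 (log2 difference of 4.48 for the knockout against 12-43, limma adjusted p = 2.09e-06). Their part in the results below was not tested. In such bulk mycelium, fewer cells that express a gene and less RNA per cell cannot be told apart.

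The alpha pheromone gene bap3-3 was the member with the highest level in the dhc2 knockout and in E6. Since no label holds alpha specificity 3 and sequence was not analysed, its reads may come from a gene that differs from the model. This holds for every strain and limits its rank and share beside the other members. It had 259 and 275 reads in the dhc2 knockout, 23 and 21 in E6 and 58 and 31 in 12-43. These correspond to 93.9 and 103 RPKM in the dhc2 knockout, 13.0 and 8.41 RPKM in E6 and 21.5 and 18.4 RPKM in 12-43. The 3 strains did not overlap, with the knockout highest and E6 lowest. On the log2(RPKM + 0.5) scale the fitted difference between the knockout and E6 was 3.09 (SE 0.19, limma adjusted p = 1.61e-05), and E6 was lower than 12-43 by a log2 difference of -0.80 (SE 0.19, limma adjusted p = 0.00923).

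Among the beta pheromone genes, bbp2-1, bbp2-2 and the copy 251507 had the highest levels in the dhc2 knockout and in 12-43. The gene bbp2-1 had 70.9 and 69.6 RPKM in the dhc2 knockout, 0 in both E6 libraries and 30.1 and 27.8 RPKM in 12-43. Behind these stood 263 and 249 reads in the knockout, 0 and 0 in E6 and 109 and 63 in 12-43. Its level was the highest of the family in 12-43 and differed little between replicates. Against a floor of 3 reads in each E6 library it was at least 65.2-fold higher in the knockout than in E6.

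The gene bbp2-2 had 82.6 and 75.4 RPKM in the dhc2 knockout (235 and 207 reads), 0 and 0.388 RPKM in E6 (0 and 1 read) and 13.7 and 10.9 RPKM in 12-43 (38 and 19 reads). With 442 reads in the knockout and 1 in E6, the ratio per read of the denominator was 348, with an exact 95% counting interval of 62.1 to 13774. Intervals and floors cover counting error only.

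The copy 251507 had 50.8 and 43.5 RPKM in the dhc2 knockout, 0 in both E6 libraries and 15.2 and 15.4 RPKM in 12-43. Its fitted log2 difference between the knockout and 12-43 was 1.59 (SE 0.15, limma adjusted p = 0.000104). The recovered reads of this copy rest on its length. At the smallest length that makes them whole, 126 bases, there were 92 and 76 reads in the knockout and 27 and 17 in 12-43, and at the RefSeq length of 252 bases there were 184 and 152 in the knockout and 54 and 34 in 12-43. Against the floor it was at least 21.4-fold higher in the knockout than in E6 at the first length and at least 42.7-fold at the second.

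The gene bbp2-8 lay in the middle of the family. It had 26.4 and 23.8 RPKM in the dhc2 knockout, 0 and 0.818 RPKM in E6 and 4.54 and 2.02 RPKM in 12-43. The reads were 107 and 93 in the knockout, 0 and 3 in E6 and 18 and 5 in 12-43, so the strains did not overlap although both wild types varied between replicates. It rose in the knockout against 12-43 by a log2 difference of 2.85 (SE 0.48, limma adjusted p = 0.00196). The ratio of the knockout to E6 was 52.5 per read, with an exact 95% counting interval of 17.7 to 257, and the fitted log2 difference was 4.93, 4.22 without E6 replicate 1 and 5.66 without E6 replicate 2. E6 was lower than 12-43 by a fitted log2 difference of -2.08 (SE 0.48, limma adjusted p = 0.00765), a value that was -1.38 without E6 replicate 1 and -2.82 without E6 replicate 2.

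The remaining 3 members had few reads in the wild types. The gene bbp2-5 had 38 and 44 reads in the dhc2 knockout (9.48 and 11.4 RPKM), 0 and 1 in E6 and 0 and 1 in 12-43. Both wild types were under the floor, so no fold is given between them, and the knockout exceeded E6 by a ratio of 64.5 per read (exact 95% counting interval 11.3 to 2580). The copy 17248 had 14 and 16 reads in the knockout (3.35 and 3.97 RPKM), 0 and 0 in E6 and 2 and 2 in 12-43. It was higher in the knockout than in 12-43 by a ratio of 6.06 per read (exact 95% counting interval 2.14 to 23.7; limma adjusted p = 0.000273) and at least 3.83-fold higher than in E6. Both bbp2-5 and the copy 17248 passed the read filter only through the knockout libraries, so their rise there is not independent of how they entered the test.

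The gene bbp2-6 went a way of its own. It had 11 and 18 reads in the dhc2 knockout, 10 and 28 in E6 and 3 and 3 in 12-43, which are 2.97 and 5.03 RPKM in the knockout, 4.21 and 8.34 in E6 and 0.827 and 1.33 RPKM in 12-43. The knockout and E6 libraries overlapped, and both strains were above 12-43. Between the knockout and E6 the fitted log2 difference was -0.64 (SE 0.36, limma adjusted p = 0.158), which did not pass the test. Against 12-43 the knockout was higher by 1.49 (SE 0.36, limma adjusted p = 0.0106), and without knockout replicate 2 it was not called (adjusted p = 0.0706).

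**Figure D1:**
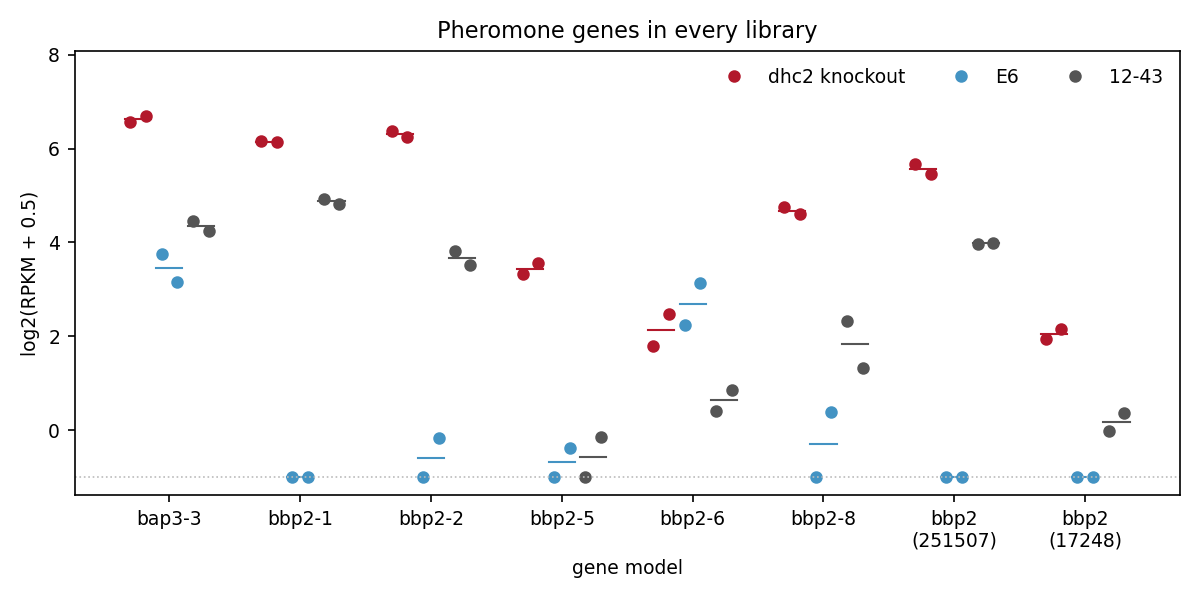
Level of each pheromone gene as log2(RPKM + 0.5) in every library, with the dhc2 knockout, E6 and 12-43 from left to right. Points are libraries, short lines are the means of 2 libraries, and the dotted line marks an RPKM of 0. The knockout lies above 12-43 for all 8 genes, and E6 lies at or near 0 for 6 of them, with bap3-3 and bbp2-6 as the exceptions.

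The order of the levels, which is a comparison between genes per length, differed between the strains. In the dhc2 knockout it ran from bap3-3 (98.6 ± 6.72 RPKM, SD, n = 2) over bbp2-2 (79.0 ± 5.04 RPKM), bbp2-1 (70.3 ± 0.902 RPKM), the copy 251507 (47.2 ± 5.14 RPKM), bbp2-8 (25.1 ± 1.84 RPKM) and bbp2-5 (10.4 ± 1.35 RPKM) to bbp2-6 and the copy 17248. The last 2, at 4.001 ± 1.46 and 3.66 ± 0.439 RPKM, overlapped between libraries, and the other neighbours in this order did not. In E6 only bap3-3 (10.7 ± 3.25 RPKM) and bbp2-6 (6.27 ± 2.92 RPKM) had more than 3 reads in any library. In 12-43 bbp2-1 came first (29.0 ± 1.57 RPKM), followed by bap3-3 (19.95 ± 2.18 RPKM), the copy 251507 (15.3 ± 0.0974 RPKM) and bbp2-2 (12.3 ± 1.92 RPKM), and no neighbours among these 4 overlapped. The genes bbp2-6, bbp2-5 and 17248 had at most 3 reads in each 12-43 library, so their order there is not read.

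The family as a whole was largest in the dhc2 knockout. The RPKM of the 8 genes summed to 340 and 336 in the knockout, 17.2 and 18.2 in E6 and 86.3 and 77.1 in 12-43. The make-up of this sum also differed. The gene bbp2-1 gave 20.8% and 20.7% of it in the knockout, none in E6 and 34.8% and 36.1% in 12-43. The gene bbp2-2 gave 24.3% and 22.4% in the knockout against 15.8% and 14.2% in 12-43. The shares of bbp2-1, the leading gene of 12-43, and of bbp2-2 thus did not overlap between these strains. Neither did those of bap3-3, bbp2-5, bbp2-8 and the copy 251507, so this was not particular to bbp2-1 and bbp2-2. The shares of bbp2-6 and of the copy 17248 overlapped. Shares of 1 sum are not independent of each other. The share of bap3-3 was 27.6% and 30.7% in the knockout, 75.6% and 46.1% in E6 and 24.9% and 23.9% in 12-43, and in E6 bbp2-6 made up 24.4% and 45.8%. The shares rest on 1019 and 978 reads in the knockout, on 33 and 54 in E6 and on 255 and 141 in 12-43.

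**Figure D2:**
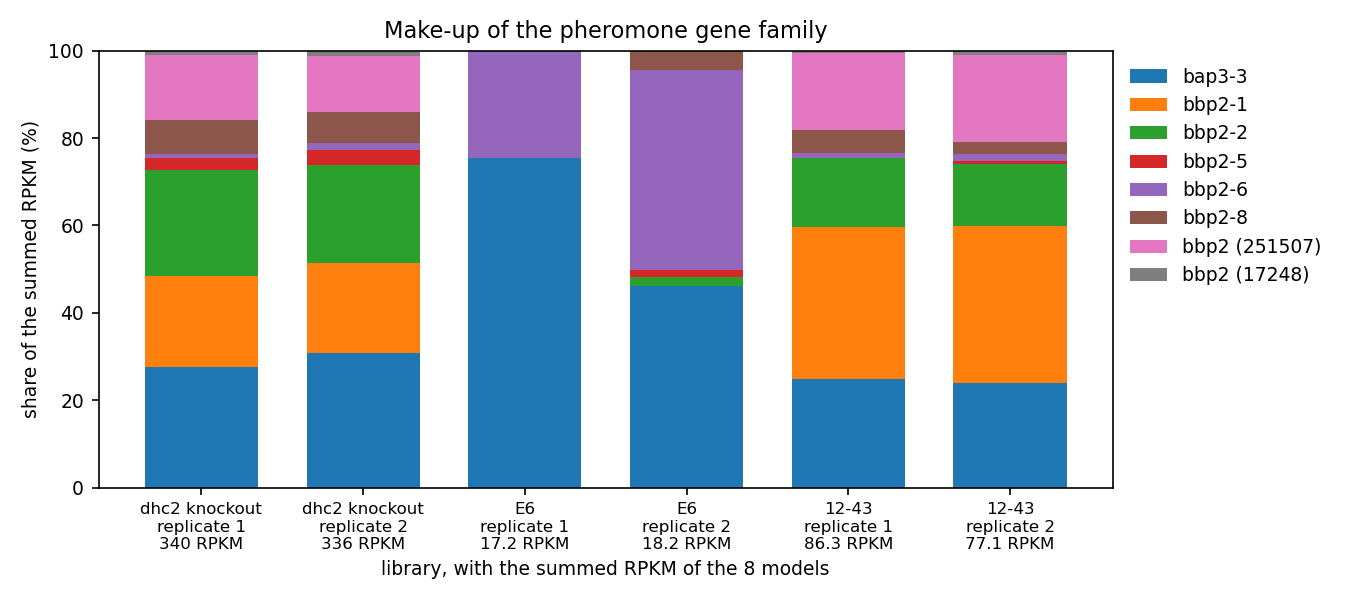
Share of each pheromone gene in the summed RPKM of the 8 models, in percent, for each library, with the summed RPKM written under each bar. In both knockout libraries bbp2-2 takes a larger share and bbp2-1 a smaller one than in 12-43, and in E6 nearly all of a much lower sum comes from bap3-3 and bbp2-6.

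The dhc2 knockout and 12-43 share the labelled mating type and differ in the labelled deletion of the dynein gene. They also stood apart in ura1 (log2 difference of 4.48) and SC4 (-5.65). Differences in selection marker, strain background or mated state therefore cannot be told apart from the deletion in this comparison. All 8 pheromone genes rose in the knockout, where 28.3% of all tested models were called higher, by limma with an adjusted p under 0.05. The gene bbp2-5 and the copy 17248 passed the read filter only through the knockout libraries, in which they were highest. Outside the knockout, bbp2-8 reached the filter level in 12-43 replicate 1 alone. The rise of these genes is therefore not independent of how they entered the test. The libraries did not overlap for any of the 8, as was so for 78% of all tested models. Fitted log2 differences ran from 1.27 for bbp2-1 to 3.98 for bbp2-5, with a median of 2.08 beside a median of 0.00 over all tested models. The value of bbp2-5 rests on 0 and 1 reads in 12-43, and was 5.51 with a pseudocount of 0.1 and 2.47 with 2. Its ratio per read was 66.3 (exact 95% counting interval 11.6 to 2650). On the side of the quality split that holds the knockout, with 12-43 replicate 1 alone as the other strain, the differences were 1.26 to 4.42 and positive for all 8 genes. A fit with this split as a covariate gives these same values, with 1 library of 12-43 behind them.

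The comparison of E6 with 12-43 sets side by side wild types of different labelled mating type. Of the 8 genes 6 fell in E6, 1 rose and 1 did not pass the test, where 59.3% of all tested models were called, 28.3% lower and 30.9% higher. The libraries did not overlap for 7 of the 8, and for 79.2% of all tested models. Those that fell were bap3-3, bbp2-1, bbp2-2, bbp2-8 and both copies of bbp2. The call on copy 17248 rests on 0 and 0 reads in E6 against 2 and 2 in 12-43, and the exact 95% counting interval of that ratio, 0 to 1.56, includes no difference. The gene that rose was bbp2-6, by a fitted log2 difference of 2.13 (SE 0.36, limma adjusted p = 0.00185) and a ratio of 6.50 per read (exact 95% counting interval 2.73 to 18.8). The median fitted difference of the 8 was -1.62, and -1.44 with genes that had no read in E6 at their bound and those under the floor in both strains at 0, beside 0.01 over all tested models. Against 12-43 replicate 2, the library on the same side of the quality split, bbp2-6 was higher in E6 by 1.87, and bap3-3, bbp2-1, bbp2-2, bbp2-8 and the copy 251507 had negative differences. The genes bbp2-5 and 17248 were under the floor in both strains. Sequence differences between strains were not analysed here, so a gene that is less expressed in E6 and one that differs from the model or is missing cannot be told apart.

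The dhc2 knockout was also set against E6, a comparison in which both the deletion and the labelled mating type differ. Of the 8 genes 7 were higher in the knockout, none was lower and bbp2-6 did not pass, where 31.6% of all tested models were called higher. The libraries did not overlap for these 7 genes, and for 84.5% of all tested models. The median fitted log2 difference was 4.51, and 4.25 with genes without a read in E6 at their bound, beside 0.00 over all tested models. The 7 genes and the median include bbp2-5 and the copy 17248, which passed the read filter only through the knockout libraries. They also include bbp2-8, which outside the knockout reached the filter level in a single 12-43 library. The higher level of these genes is therefore not independent of how they entered the test. The comparisons share libraries, so they are not independent of each other. All knockout libraries lay on one side of the quality split and all E6 libraries on the other, so neither has a library of the other strain on its own side.

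**Figure D3:**
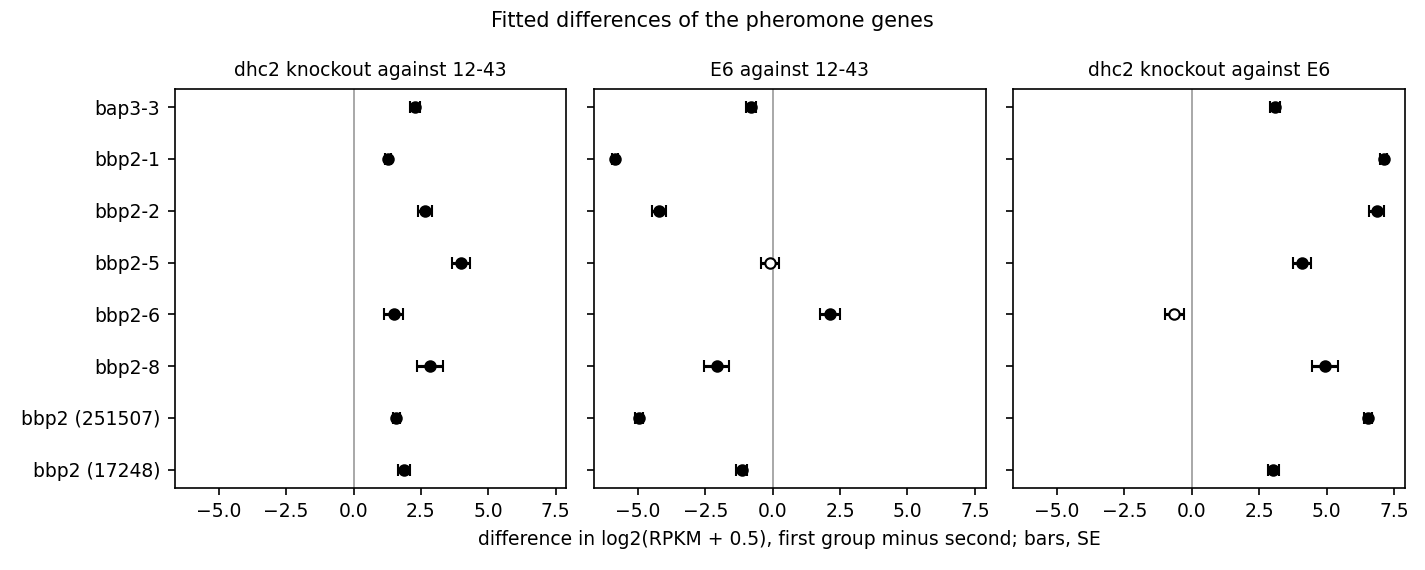
Fitted differences of each pheromone gene in log2(RPKM + 0.5), first group minus second, for the dhc2 knockout against 12-43, E6 against 12-43 and the dhc2 knockout against E6. Bars are standard errors, filled points passed the limma test at an adjusted p under 0.05 and open points did not. Every point lies right of 0 in the comparison of the knockout with 12-43, and bbp2-6 is the gene that lies apart in both comparisons with E6.

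The members share small size and a common place. Their recovered coding lengths were 126 to 291 bases, against a median of 1137 bases over all tested models, and 6 of the 8 equalled the RefSeq length. In the RefSeq table of assembly Schco3 (strain H4-8), used here for names and order because the build behind the files is not given in the sources used here, all 8 are listed in 1 stretch of 20 models from bbp2-2 to the receptor gene bar3. The order is bbp2-2, model 1238579, the receptor gene bbr2, bbp2-1, the copy 251507, model 60526, the copy 17248, bbp2-5, bbp2-8, bbp2-6, models 1160054, 1238661 and 270009, bap3-3, model 270001, bap3-1 and bar3, with 3 models in between whose identifiers were not matched to the files. How similar the pheromone genes are in sequence was not analysed here. Reads that fit more than 1 of them could be split between copies in ways the deposited values do not show, so the value of a single copy is uncertain.

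Along this stretch E6 had hardly any reads from bbp2-2 to bbp2-8 and had more than 3 reads a library again at bbp2-6, models 1160054 and 1238661, bap3-3 and bar3. That run has 9 matched models, 6 of them pheromone genes. These 9 models had 2122 and 1969 reads in the dhc2 knockout, 1 and 10 in E6 and 1000 and 485 in 12-43. The run was cut at the first model with more than 3 reads in an E6 library, so its low E6 counts follow from that cut. The run was noticed in the values and is a description. Model 1160054, next to bbp2-6, had the reverse of that pattern, with 2 and 2 reads in the knockout, 43 and 87 in E6 and 2 and 2 in 12-43. It was higher in E6 than in 12-43 by a fitted log2 difference of 4.52 (SE 0.24, limma adjusted p = 6.60e-06). Model 1238661, which follows it, had 3.81 and 2.99 RPKM in the knockout, 19.1 and 24.8 in E6 and 16.9 and 16.7 RPKM in 12-43, and was lower in the knockout than in 12-43 by a log2 difference of -2.15 (SE 0.17, limma adjusted p = 5.66e-05). The rise in the knockout was therefore not shared by every model of the stretch.

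The alpha pheromone gene bap3-1 (identifier 60117), listed between bap3-3 and bar3, was at 0 in all 6 libraries. A count of 0 allows up to 1.18 to 1.93 RPKM at its RefSeq length of 177 bases. Model 270001 was also listed at 0 in every library, and model 270009, with 0 to 4 reads a library, was not tested.

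**Figure D4:**
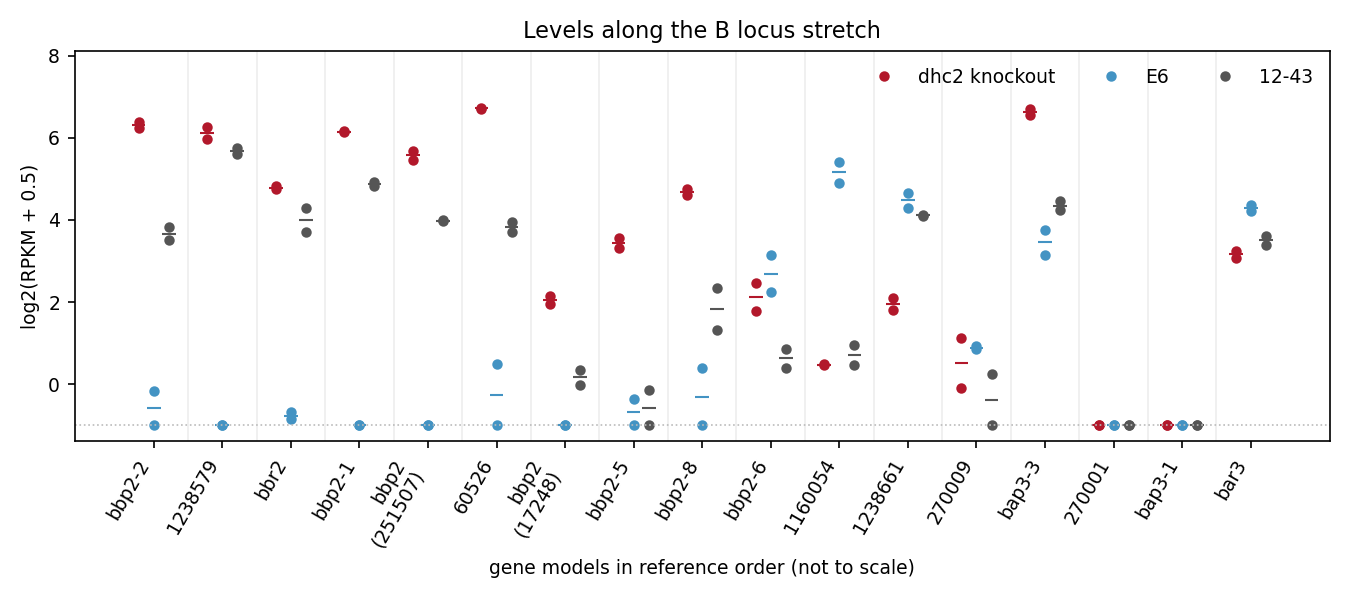
Level as log2(RPKM + 0.5) of the matched gene models from bbp2-2 to bar3 in the order of the reference table, not to scale, for the dhc2 knockout, E6 and 12-43. Points are libraries, short lines are the means of 2 libraries and the dotted line marks an RPKM of 0. E6 stays near 0 from bbp2-2 to bbp2-8 and exceeds both other strains at model 1160054.

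The receptors, which sense the pheromones, gave mixed results. Of 5 tested receptor and receptor-like genes 2 rose and 1 fell in the dhc2 knockout against 12-43, 1 rose and 4 fell in E6 against 12-43, and 4 were higher and 1 lower in the knockout against E6. Over all tested models 54.5%, 59.3% and 62.7% were called in these comparisons. The fall of brl4 in E6 against 12-43 (-0.40, limma adjusted p = 0.0209) was not called without 12-43 replicate 1 or either E6 replicate, nor with the quality split as a covariate (limma adjusted p of 0.0617 to 0.0852). The beta receptor gene bbr2, which lies among the beta pheromone genes, had 26.5 and 27.8 RPKM in the knockout, 0.0574 and 0.122 in E6 and 18.9 and 12.5 RPKM in 12-43. Its log2 difference between the knockout and 12-43, 0.81 (SE 0.19, limma adjusted p = 0.0104), was below the fitted value of each of the 8 pheromone genes, a gap that was not tested, and the call was lost without either knockout replicate (adjusted p = 0.0537 and 0.0661). The alpha receptor gene bar3 had 8.99 and 7.94 RPKM in the knockout, 20.3 and 18.1 in E6 and 11.8 and 10.1 RPKM in 12-43. It was lower in the knockout than in E6 by a log2 difference of -1.22 (SE 0.14, limma adjusted p = 0.00024), whereas bap3-3 was higher. Like bap3-3, bar3 is named for an alpha specificity that no label holds, so its reads may also come from a gene that differs from the model.

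Of the receptor-like genes, brl1 had 12.8 and 12.4 RPKM in the knockout, 2.02 and 2.45 in E6 and 6.75 and 4.95 RPKM in 12-43. The strains stood in the same order as for bap3-3, and the log2 difference between the knockout and E6 was 2.19 (SE 0.17, limma adjusted p = 4.81e-05). The gene brl3 had 100 and 103 RPKM in the knockout, 74.4 and 75.6 in E6 and 150 and 127 RPKM in 12-43, and brl4 had 31.9 and 31.1 RPKM in the knockout, 23.5 and 23.7 in E6 and 37.8 and 29.6 in 12-43. Their differences between the knockout and E6, 0.34 (limma adjusted p = 0.0112) for brl3 and 0.32 (limma adjusted p = 0.0461) for brl4, were no longer called without either knockout replicate, and that of brl4 also without either E6 replicate. With the quality split as a covariate brl3 differed by 0.19 and brl4 by 0.06, and neither was called. That fit takes the effect of the split from the difference between the 12-43 replicates alone, since the knockout and E6 lie on opposite sides of it. Genes of pheromone maturation and of signalling behind the receptors were to be taken from product descriptions, which the reference table does not hold, and were not analysed here.

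**Figure D5:**
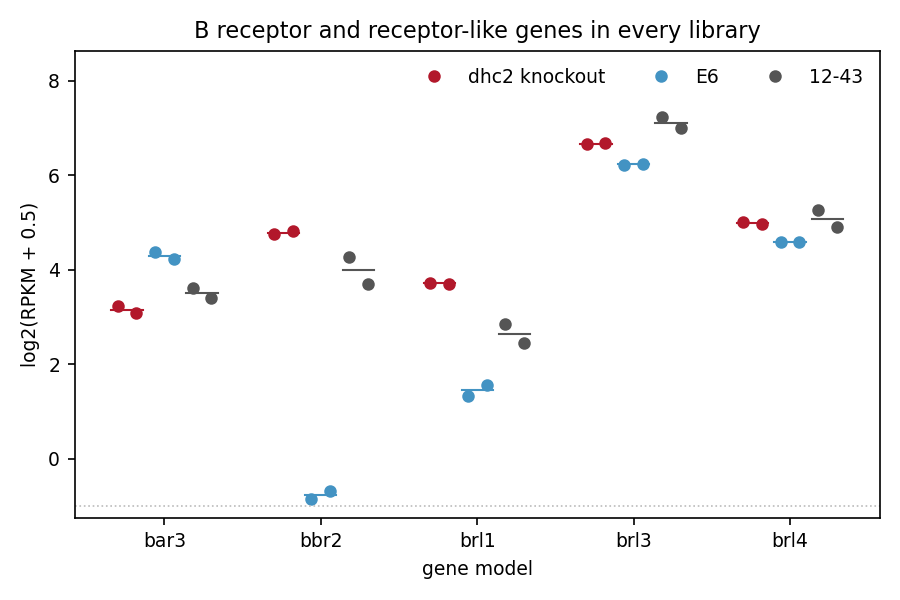
Level of the B receptor genes bar3 and bbr2 and of brl1, brl3 and brl4, which are receptor-like, as log2(RPKM + 0.5) in every library, with the dhc2 knockout, E6 and 12-43 from left to right. Points are libraries, short lines are the means of 2 libraries and the dotted line marks an RPKM of 0. The gene bbr2 is near 0 in E6, and bar3 is highest there.

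Models with the most similar pattern were sought by the root mean square difference over the 6 libraries, each model taken as log2(RPKM + 0.5) minus its own mean. The model nearest to bbp2-2 was 60526, at 0.22, a model of 171 bases that lies between the copies of bbp2 in the reference order. It had 106 and 103 RPKM in the dhc2 knockout, 0 and 0.899 RPKM in E6 and 14.98 and 12.7 RPKM in 12-43, and it was the only model that is no member within 0.5 of bbp2-2. Since it was chosen for its pattern, no test is given. The tables used here give it no symbol. The next were models 1161134 and 1313697, at 0.62 and 0.67. The models nearest to bap3-3 were 1186802, 1181428 and 1190496, at 0.14, 0.17 and 0.20. Model 1186802 had 124 and 125 RPKM in the knockout, 16.2 and 13.4 in E6 and 25.4 and 26.2 RPKM in 12-43. In all, 110 models that are no member lay within 0.5 of bap3-3.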

How the data were processed

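RNA sequencing of 6 mycelium libraries gave 1 table each. The authors deposited RPKM for 14652 gene models, per the file headers, with decimal commas and followed by a FastQC 0.9.2 report. TopHat, DESeq and edgeR appear in the submitters' processing notes without versions or roles. How reads were counted, whether strand was used, and which build and annotation were used is not given in the sources used here. Raw reads numbered 17735309 to 25842890 a library. Recovered reads, denominators and coding lengths (multiples of 3) made all 13715 models above 0 whole to within 0.005 reads plus rounding. On simulated data (13715 models) all 6 denominators were exact. The reads were scored only for models read in all libraries, where 99.2% were exact and none came out above the truth. Of the pheromone genes only bap3-3 and bbp2-6 were read in all libraries, so that share does not cover the others.

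The test was limma 3.58.1 (R 4.3.3) with trended variance on log2(RPKM + 0.5), with the 3 groups fitted together (3 residual degrees of freedom) and Benjamini-Hochberg adjustment over 12484 models at 0.05. Scaling was by trimmed means of M values (factors 0.957 to 1.06). The filter was 0.744 CPM in at least 2 libraries and 15 reads in all. On simulated data with 200 models changed, 64% to 74% of 2-fold and 99% to 100% of 4-fold differences were called over the 3 comparisons. These shares were not split by read level. How far they hold for the pheromone genes with few reads was not tested. Ratios have exact binomial 95% intervals, computed with scipy 1.17.1.

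Replicates differed beyond counting noise (mean chi-square per model 2.98 to 34.0), so the limma fits kept them as separate libraries. The ratios per read and their exact intervals sum the reads of both replicates of a strain, and so leave out this extra spread. Of the identifiers, 3636 matched the RefSeq table of Schco3 by current or older locus tag. Members, lists and tests were chosen with earlier results of these data known. Named genes were all members and receptors, and the 3 models nearest in pattern to bap3-3 and to bbp2-2. The models along the stretch were chosen after their values were seen. Alternatives were other pseudocounts, filters and scalings, voom, a replicate block, the quality split as a covariate, the compared groups alone and leaving out each library.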

Additional observations from a re-analysis of the deposited data

How the results depend on the processing

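Over 393 refits of the pheromone genes, 388 kept direction and side of the threshold. The count of called pheromone genes (8 of 8 in the dhc2 knockout against 12-43, 7 in E6 against 12-43 and 7 in the knockout against E6) was 3 in each comparison with a mean of at least 50 reads, because only 3 members were tested there. No other setting moved these counts by over 1.5 times. The difference of bbp2-5 between E6 and 12-43, with at most 1 read a library, was -0.10, 0.12 with voom and -0.53 to 0.33 when 1 library was left out (0.33 without 12-43 replicate 2 and 0.22 without E6 replicate 1), never called. Fitted differences of genes near 0 reads depend on the pseudocount: for bbp2-1 in E6 against 12-43 the value was -5.84, -8.15 with a pseudocount of 0.1 and -3.92 with 2. With the quality split as a covariate bbp2-5 and bbp2-8 were higher in the knockout than in E6 by 4.95 and 4.01, against 4.09 and 4.93 without it. In this comparison the fit takes the effect of the split from the difference between the 12-43 replicates alone. These values are therefore no separate correction for the split. Of the named models nearest to bbp2-2, 1 of 3 was kept with a pseudocount of 2.

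The count of called receptor genes in the knockout against E6, 5 of 5, was 3 with the covariate, which here rests on the 12-43 replicates alone. It was 3 to 5 when 1 library was left out. The difference of brl4 between the knockout and 12-43 was -0.08, and -0.22 to 0.050 when 1 library was left out (0.050 without 12-43 replicate 1), never called. Whether replicate numbers pair the libraries was checked by the correlation of their deviations across models, 0.00 to 0.03 between strains. The main fit therefore did not pair them, though such a correlation cannot show whether libraries with the same number were prepared together. With the replicate block 8, 7 and 8 pheromone genes were called in the 3 comparisons. The block added bbp2-6 in the knockout against E6 (-0.64, limma adjusted p = 0.0219) and ended the call on brl4 there (limma adjusted p = 0.054), which was also lost with upper-quartile scaling (0.0905) and without the read filter (0.0509). With at most 3 reads a library in E6 for 6 members, depth limits their folds against E6 to bounds or wide counting intervals. The cause of these shifts was not tested.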
